A study of Mus musculus with 6 samples.

Results

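Hopx-high, keratin-low cells were taken from the sorted neoplastic cells of mouse lung tumours. Cells were kept with at least 500 detected genes, at most 20% mitochondrial transcripts and at least 1 TdTomato transcript, and were then selected on measured values, at least 15 Hopx and under 50 Krt8 plus Krt18 transcripts per 10000 of the cell. Transcripts were counted as UMIs, molecular tags that let PCR copies of 1 molecule be counted once. Of 16017 cells, 13936 met the gene limit, 12183 also met the mitochondrial limit and 12092 also carried TdTomato. The rule selected 950 of them, or 7.86% (exact binomial 95% interval 7.38 to 8.35), and the other 11142 TdTomato cells served as the comparison.

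The tumours were induced with lentiviral Cre in Lkb1XTR/XTR;Rosa26LSL-tdTomato mice, so every group had an initially trapped Lkb1 (Stk11) and tdTomato in the infected cells. Tumours grew for 20 weeks and the mice were then treated for 2 weeks. The 3 Restored mice (2 male, 1 female) carried FLPo-ERT2 and received Tamoxifen in doses of 4 mg, which deletes the gene trap. The 3 NonRestored mice were a male without FLPo-ERT2 given Tamoxifen, a male without FLPo-ERT2 given vehicle and a female with FLPo-ERT2 given vehicle. Cells positive for CD45, CD31, F4/80 or Ter119 were excluded in the sort and tdTomato-positive cells were collected for 10x Chromium 3' v3 libraries. The cells of all mice were analysed as 1 pooled sample, and the groups were not compared here because the values used carry no mouse of origin. No test was therefore run, and all intervals below are 95% intervals for counting error only, which do not cover differences between mice.

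Alveolar type I (ATI) cells are the flat cells that cover most of the gas-exchange surface of the lung, and they share a thin basement membrane with the capillaries. Alveolar type II (ATII) cells secrete surfactant, serve as progenitors of ATI cells and are a common origin of lung adenocarcinoma. HOPX, a small homeodomain protein that does not bind DNA itself, is widely used to mark ATI cells and cells moving from the ATII to the ATI fate. Keratins 8 and 18 are raised in a transitional state between both fates.

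The Hopx-high, keratin-low cells held 13327656 UMIs, and single cells ranged around a median of 11871.5 UMIs from 693 to 80908. The other TdTomato cells were deeper, at a median of 20204. Per cell, the medians were 3507.5 genes in the selected and 4236 in the other cells, and mitochondrial transcripts took 2.21% and 3.86%. Hopx, which chose the cells, had a median of 30.7 UMIs per 10000 among them and reached 185, and 888 of the 950 carried at least 10 Hopx UMIs, while 11 passed with 3 or fewer. The other TdTomato cells fell into 4 classes by the same 2 measures. Of these, 127 were Hopx-high and keratin-high, 826 were Hopx-mid (5 to under 15) and keratin-low, 9134 were Hopx-low (under 5) and keratin-low, and 1055 were keratin-high with Hopx under the limit. At the Hopx limit, the 199 cells just inside (15 to 20) and the 274 just outside (10 to 15) had Sftpc at 70630 and 70189 CPM (UMIs per 1000000 summed over the cells), Ager at 4465 and 3503 CPM, Akap5 at 502 and 353 CPM and Rtkn2 at 54.1 and 35.2 CPM. At the keratin limit, the 75 cells just inside (40 to 50) and the 49 just outside (50 to 60) had 5684 and 5146 CPM of Ager and 1036 and 1210 CPM of Krt19. Lyz2 and Rtkn2 differed more there, at 264 and 77.1 CPM for Lyz2 and 109 and 61.9 CPM for Rtkn2. The cells themselves ran on across both limits without a gap in Hopx or in the keratins.

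**Figure D1:**
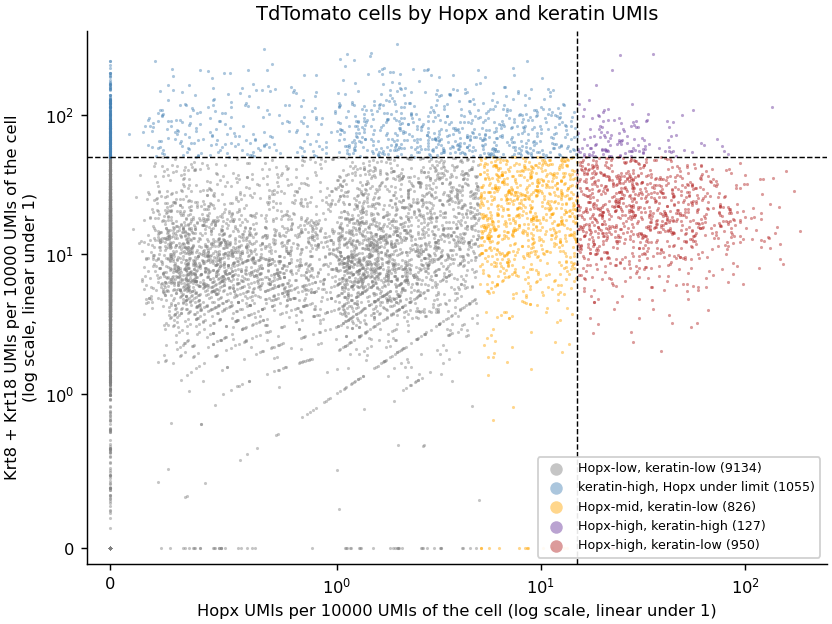
Each point is a TdTomato cell, plotted by its Hopx UMIs (x axis) and its summed Krt8 and Krt18 UMIs (y axis), both per 10000 UMIs of the cell, with the limits of 15 and 50 as dashed lines. The 950 selected cells (red) run on without a gap into the 826 Hopx-mid and the 127 Hopx-high, keratin-high cells.

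The ATI name was set beside 6 markers that the rule did not use, Ager, Rtkn2, Akap5, Col4a3, Sema3a and Cavin2. These were chosen with earlier results of these data known, so they describe the cells and are no independent check of the name. All 6 were higher in the Hopx-high, keratin-low cells than in the other TdTomato cells, by 5.16-fold to 38.6-fold. On GRCm38 (GENCODE M21 annotation) Ager lies at chr17:34597862-34600936, Rtkn2 at chr10:67979570-68059740, Akap5 at chr12:76324891-76334153, Sema3a at chr5:13125414-13602565 and Cavin2 at chr1:51289126-51302960. After each cell was thinned to 5000 UMIs, which kept 841 of the 950 cells, a median of 4 of the 6 markers had a UMI, and 734 cells (87.3%, 84.8 to 89.5) had 3 or more. That share was 77.4% in the Hopx-high, keratin-high cells, 47.3% in the Hopx-mid cells, 20.9% in the keratin-high cells under the Hopx limit and 3.35% in the Hopx-low cells. Fibroblast-rich cells, those with at least 20 UMIs of fibroblast markers, and immune-rich cells gauged free RNA in the droplets for these markers except Cavin2, which stromal cells express. Of fibroblast-rich cells 2.06% had 3 or more of the 6 markers, and of immune-rich cells 0 of 72 did, which allows up to 4.17%. With Cavin2 left out, 3 or more of the other 5 were found in 81.8% (79.0 to 84.4) of the selected and 1.03% (0.125 to 3.67) of the fibroblast-rich cells. The markers did not go against the ATI-like name. A sharp outer border was not seen, since 345 thinned Hopx-mid cells also had 3 or more of them.

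Ager, which encodes the receptor RAGE of the ATI basolateral membrane, had 0 to 187 UMIs per 10000 in single cells, with a median of 59.1 and quartiles of 40.2 and 82.7. Its summed level was 5901 CPM against 1144 in the other TdTomato cells, a ratio of 5.16 (5.12 to 5.20). It was present in all 841 thinned cells, and in 87.0% of the Hopx-low cells against 14.9% of the fibroblast-rich cells (unthinned 99.9%, 92.8% and 22.5%). Ager was therefore graded across TdTomato cells rather than present or absent, with medians of 59.1 per 10000 in the Hopx-high, keratin-low cells, 29.1 in the Hopx-mid cells and 7.57 in the Hopx-low cells.

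Rtkn2 separated the classes further. It stood at 177 CPM against 4.59, a ratio of 38.6 (36.0 to 41.5), and was detected in 36.6% of the thinned cells against 1.94% of the other TdTomato cells (unthinned 48.2% and 5.54%; 1.03% of thinned fibroblast-rich cells). Akap5, a scaffold for protein kinase A, stood at 824 against 45.9 CPM and was detected in 88.0% against 12.5% of thinned cells (unthinned 93.5% and 23.4%; 2.58% of thinned fibroblast-rich cells). Sema3a, a secreted guidance factor, stood at 148 against 11.6 CPM. Cavin2, a coat protein of caveolae, stood at 236 against 21.9 CPM, but it was also detected in 42.8% of thinned fibroblast-rich and 68.2% of endothelial-rich cells, so this marker alone did not set ATI-like cells apart from stroma.

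Over the whole ATI list of 16 genes, 15 had at least 10 CPM in either class, and these 15 were at least 2-fold higher with an interval that excluded 1. Of all 8370 genes with that level, 6.18% were called higher and 5.65% lower, and these shares stand as background to every list count against the other TdTomato cells. Rtkn2, Spock2 and Pdpn reached 10 CPM in the selected cells only, so that they had to differ. The remaining 12 had 10 CPM in the other TdTomato cells too, and 12 of them were higher, against 4.72% of the 7816 genes at that level there. Members that reached the minimum on 1 side only are named in the same way for the lists below, and where both sides reached it 4.98% of 7413 genes were higher and 2.98% lower. The median log2 ratio was 2.96 over all 15 and 2.36 over the 12, where the median of all genes was 0.23. Sftpc took a larger share of the UMIs in the other TdTomato cells, and its part in that shift of all genes was not tested. Set relative to the median gene, 14 of the 15 stayed at least 2-fold higher and Vegfa, an endothelial growth factor, did not. The remaining listed markers included Pdpn (podoplanin, an ATI surface protein) at 52.4 against 2.68 CPM, Spock2 (an extracellular proteoglycan) at 73.8 against 2.43, Clic5 (a chloride channel family protein tied to ezrin) at 811 against 104, Emp2 (a tetraspan membrane protein) at 1886 against 495 and Aqp5 (the apical water channel) at 2484 against 1054. Igfbp2, described as a mark of mature ATI cells, was near absent, with 2.48 CPM in the selected and 2.49 in the other TdTomato cells, and is the member of the list that did not reach 10 CPM.

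**Figure D2:**
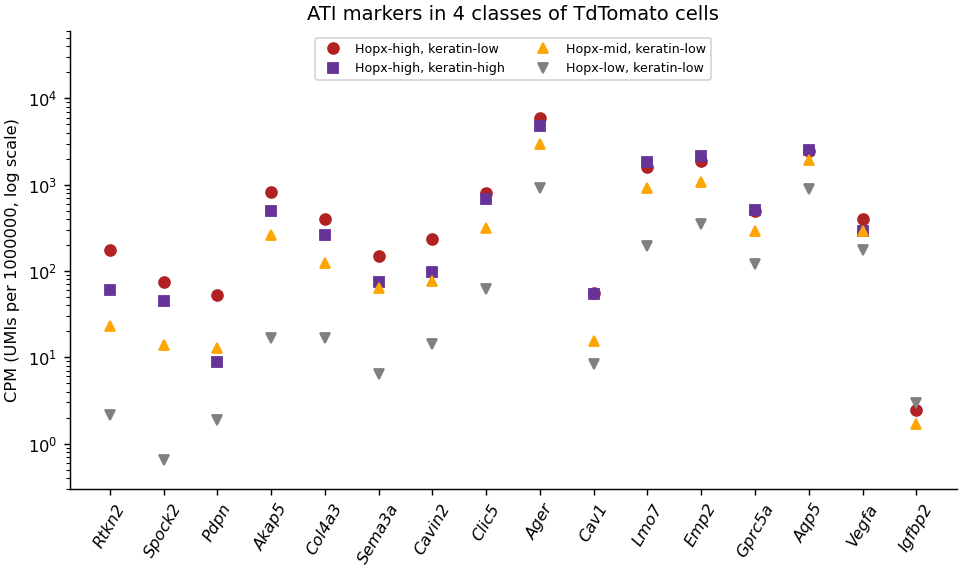
Summed level (CPM, log axis) of the 16 ATI markers in 4 classes of TdTomato cells, with genes ordered by their ratio between the Hopx-high, keratin-low cells and the other TdTomato cells. Rtkn2 stands at 177 CPM in the Hopx-high, keratin-low cells and 2.16 CPM in the Hopx-low cells, Aqp5 at 2484 and 885 CPM, and Igfbp2 lies under 10 CPM in every class (no point where it had no UMI).

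The genes of the ATI basement membrane were higher as a group. Of 14 measured members of the list, 8 were at least 2-fold higher and 0 lower (6.18% and 5.65% of all genes), with a median log2 ratio of 1.24, and relative to the median gene 7 stayed higher, without Lamb2. The type IV collagen chains differed among themselves. Col4a3 stood at 404 against 29.5 CPM (ratio 13.7, 13.2 to 14.2) and Col4a4 at 392 against 40.8 CPM (9.60, 9.28 to 9.93). Col4a5, the X-linked chain that assembles with both, stood at 54.7 against 16.0 CPM (3.41, 3.15 to 3.70). The widespread chains Col4a1 and Col4a2 had ratios of only 1.56 and 1.75. Lama3 (3.72-fold), Agrn (3.40-fold), Hspg2 (2.93-fold) and Npnt (nephronectin, 2.45-fold) were also higher, whereas the laminin chain Lamb3, with a ratio of 1.46, was not called. Nid1, which links laminin to type IV collagen, had 0 UMIs in the selected cells (which allows up to 0.225 CPM) and 3.90 CPM in the other TdTomato cells.

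Col4a3 (chr1:82586921-82722059, plus strand) and Col4a4 (chr1:82448423-82586849, minus strand) lie head to head on GRCm38 with 71 bases between their annotated starts. The stretch between them is shown because both genes stood high together. It is read 5′ to 3′ on the minus strand, towards Col4a4, from the mouse RefSeq promoter windows of GRCm38.p6 (chr1:82586850-82586920), with no part marked.
Col4a3 and Col4a4 shared start region: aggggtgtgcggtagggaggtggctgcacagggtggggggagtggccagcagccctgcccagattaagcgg

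Caveolae are dense in ATI cells, and 7 of 12 measured genes of the caveola and EMP list were at least 2-fold higher and 2 lower, beside 6.18% and 5.65% of all genes. Cav1 stood at 55.1 against 10.7 CPM, Cav2 at 214 against 57.8, Cavin1 at 203 against 77.4, Ehd2 (which holds caveolae at the membrane) at 193 against 62.5, and Pmp22 at 278 against 47.4 CPM (5.87-fold). The EMP family was split, since Emp2 was 3.81-fold higher while Emp1 (22.4 against 66.9 CPM) and Emp3 (15.6 against 35.4 CPM) were lower. Without cells that held 3 or more endothelial, fibroblast or immune UMIs, 7 genes of this list were higher and 1 lower (6.36% and 4.97% of all 8292 genes measured there), and Emp3 was no longer called. Cav1 reached 10 CPM in the selected cells only there, and of the other 11 genes 6 were higher and 1 lower.

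Guidance factors and their receptors also moved apart within a family. Of 9 measured genes, 5 were higher and 1 lower (6.18% and 5.65% of all genes), with Sema3b and Sema3e at 10 CPM in the selected cells only, and of the other 7 genes 3 were higher and 1 lower. Besides Sema3a, Sema3e stood at 81.6 against 6.05 CPM (13.5-fold, 12.5 to 14.6), Sema3b at 37.7 against 9.43 CPM and the receptor Nrp2 at 60.5 against 14.99 CPM. The other neuropilin, Nrp1, was lower at 81.4 against 184 CPM. Sema3c, at 71.0 against 82.0 CPM, was not called.

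Apical water and sodium transport is a main task of ATI cells. All 3 subunits of the epithelial sodium channel were higher, with Scnn1a at 223 against 80.5 CPM (2.77-fold), Scnn1b at 142 against 23.7 CPM (5.98-fold) and Scnn1g at 107 against 11.5 CPM (9.34-fold). Atp1b1, a subunit of the basolateral sodium pump, stood at 544 against 1077 CPM, on the edge of 2-fold. In all, 6 of 10 measured transport genes were higher, Clic3 (4.29-fold) among them, and 0 were lower (6.18% and 5.65% of all genes). Relative to the median gene Atp1b1 counted as lower. Atp1b1 did so too without cells that held 3 or more endothelial, fibroblast or immune UMIs, at 544 against 1108 CPM. There 7 transport genes were higher and 1 lower (6.36% and 4.97% of all genes), with Aqp1 (10.7 against 1.81 CPM) added. Aqp1 reached 10 CPM in the selected cells only, and of the other 9 genes 6 were higher and 1 lower.

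YAP and TAZ with their TEAD partners act in ATI differentiation and stretch responses, and 8 of 13 measured genes of that list were at least 2-fold higher, with 0 lower and a median log2 ratio of 1.39, beside 6.18% of all genes higher. Tead4 reached 10 CPM in the selected cells only, and of the other 12 genes 7 were higher, with a median of 1.22. Wwtr1, which encodes TAZ, stood at 109 against 38.4 CPM, while Yap1, at 40.5 against 37.3 CPM, was not called. Among the TEAD genes, Tead1 (148 against 51.9 CPM) and Tead4 (17.7 against 6.74 CPM) were higher. The targets Ctgf (149 against 37.1 CPM), Cyr61 (660 against 221 CPM) and Ajuba (51.7 against 13.5 CPM) were higher, whereas Ankrd1, another common target, was near 0 in both classes (0.525 and 1.24 CPM). Relative to the median gene, Lats2 dropped out and 7 remained. The nearest classes differed little in this list. Among genes at 10 CPM in both classes, 0 of 13 were higher and 1 lower than in the Hopx-high, keratin-high cells (0.773% and 1.21% of such genes). Against the Hopx-mid cells 1 of 13 was higher and 0 lower (0.618% and 0.979% of such genes).

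The letters CATTCC, the core of TEAD binding sites, were looked for on both strands (as CATTCC or GGAATG) in the 250 bases before RefSeq gene starts. They occurred in 12.6% of 32851 windows and in at least 1 window of 14.4% of 27025 genes. Of 13 genes of the YAP/TEAD list with a window, 9 held a match, which is a description of letters and not a binding site. The Ajuba window is shown because this target was among the called genes and held the letters at 186 and 164 bases before the start (chr14:54577662-54577911, minus strand, GRCm38.p6, 5′ to 3′ towards the gene). Capitals mark the matches.
Ajuba: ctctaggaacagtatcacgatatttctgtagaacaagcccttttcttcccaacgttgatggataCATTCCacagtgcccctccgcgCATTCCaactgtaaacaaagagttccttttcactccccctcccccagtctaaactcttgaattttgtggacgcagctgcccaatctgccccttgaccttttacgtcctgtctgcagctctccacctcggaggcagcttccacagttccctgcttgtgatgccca

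Among secreted signals, 8 of 14 measured genes were higher and 1 lower (6.18% and 5.65% of all genes). Wnt3a, Fgf18, Tgfb2 and Wnt7b reached 10 CPM in the selected cells only, and Bmp2 and Edn1 in the other TdTomato cells only. Of the 8 genes that reached it on both sides 5 were higher and 0 lower. Pdgfa, which acts on alveolar myofibroblasts, stood at 203 against 79.0 CPM, and Shh at 115 against 48.9 CPM. Tgfb2 stood at 42.02 against 6.96 CPM (6.04-fold), Wnt7a at 54.4 against 16.9 CPM, Fgf18 at 15.7 against 3.38 CPM, and Pdgfb at 47.6 against 18.5 CPM. Wnt3a was sparse, with 200 UMIs in the selected cells, but had one of the widest ratios at 15.01 against 0.349 CPM (43.0-fold, 33.2 to 56.1). Bmp2 was lower, at 6.30 against 15.7 CPM, and Tgfb1, at 41.3 against 41.6 CPM, was not called.

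Tight junction genes were higher in part. Cldn18, the main alveolar claudin, stood at 3196 against 976 CPM (3.27-fold), Tjp1 at 131 against 50.7 CPM and Ocln at 89.1 against 34.4 CPM. Of the 13 measured junction and integrin genes these 3 were higher and Itga6 (25.3 against 55.4 CPM) was lower, where 6.18% and 5.65% of all genes were, so that the lower share was near that of all genes. The actin list was mixed, with 3 of 15 higher and 3 lower, and the lower ones, Palld, Pdlim7 and Tagln, reached 10 CPM in the other TdTomato cells only. Without cells that held 3 or more endothelial, fibroblast or immune UMIs, 3 of 14 were higher and 1, Palld, lower (6.36% and 4.97% of all genes), while Pdlim7 and Tagln were no longer called. Palld again reached 10 CPM in the other TdTomato cells only, and of 12 genes at it on both sides 3 were higher and 0 lower. With all cells, the actin median log2 ratio of 0.20 lay under that of all genes, so its sign turned to -0.04 relative to the median gene. Msn (moesin), at 613 against 189 CPM, stayed higher on both scales, while Vcl and Myl12a did not.

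The ATII program was reduced but not absent. Of 18 measured ATII markers, 15 were at least 2-fold lower and 0 higher, against 5.65% of all genes, and the median log2 ratio was -1.96. Lyz2 was 12.2-fold lower (11.96 to 12.4) at 806 against 9824 CPM, Fabp5 20.4-fold lower at 20.8 against 425 CPM, Chil1 9.39-fold lower and the chemokine Cxcl15 8.05-fold lower at 670 against 5391 CPM. The surfactant genes differed less, with Sftpc at 47548 against 120080 CPM (2.53-fold lower), Sftpb at 4252 against 10426 CPM and Sftpa1 at 2901 against 15067 CPM (5.19-fold lower). Lamp3 and Slc34a2, the lamellar body protein and the phosphate carrier of ATII cells, were 6.84-fold and 5.64-fold lower. The protease genes that process surfactant proteins did not follow, since Napsa stood at 1762 against 2246 CPM and Ctsh at 3162 against 2152 CPM.

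Genes of fatty acid and sterol synthesis, which supply surfactant lipid, were lower as a group, with 10 of 13 measured members lower and 0 higher, against 5.65% of all genes lower. Sqle reached 10 CPM in the other TdTomato cells only, and without it 9 of 12 were lower. Fasn stood at 109 against 451 CPM and Scd1 at 661 against 2607 CPM. Pcyt1a, the rate-setting enzyme of phosphatidylcholine synthesis, stood at 46.4 against 41.1 CPM and was not called. Of the 7 genes of MHC class II, which ATII cells express, 0 were called in either direction.

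Most transcription factors of the list were not called, with 1 of 19 measured members higher and 4 lower, and the higher share was near the 6.18% of all genes (5.65% were lower). Nkx2-1, the lung lineage factor, stood at 604 against 354 CPM and in 92.5% of the thinned cells against 78.8% of the other TdTomato cells (unthinned 95.1% and 92.8%; 7.22% of thinned fibroblast-rich cells). Cebpa, an ATII maturation factor, was lower at 132 against 317 CPM, as were Cebpd (96.8 against 242 CPM), Etv5 (50.9 against 102 CPM) and Sox9 (2.93 against 13.9 CPM, and so at the minimum on the other side only). Id3 was higher at 231 against 90.4 CPM, while Id2, at 83.1 against 164 CPM, counted as lower only relative to the median gene.

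Transitional markers were divided, with 2 of 15 measured members higher and 5 lower, although Krt8 and Krt18 had been limited by the rule. Cdkn1a, the p53 target p21, stood at 807 against 365 CPM (not 2-fold relative to the median gene), and Itgb6, a subunit of an integrin that activates TGF-beta, at 120 against 30.0 CPM. Sfn, Plaur, Ndrg1, Itga2 and Sprr1a were lower, with Sprr1a at 3.98 against 59.1 CPM. Ndrg1, Itga2 and Sprr1a reached 10 CPM in the other TdTomato cells only, and of the remaining 12 markers 2 were higher and 2 lower. Krt7 (1039 against 551 CPM) and Krt19 (627 against 448 CPM) were not called. Against the Hopx-low, keratin-low cells alone, 9 of 14 measured markers were higher and 2, Ndrg1 and Sprr1a at the minimum in the Hopx-low cells only, lower (8.66% and 6.23% of all genes were), the higher ones including Krt7 (3.99-fold), Krt19 (2.99-fold), Cldn4 (3.28-fold) and Clu (2.22-fold).

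**Figure D3:**
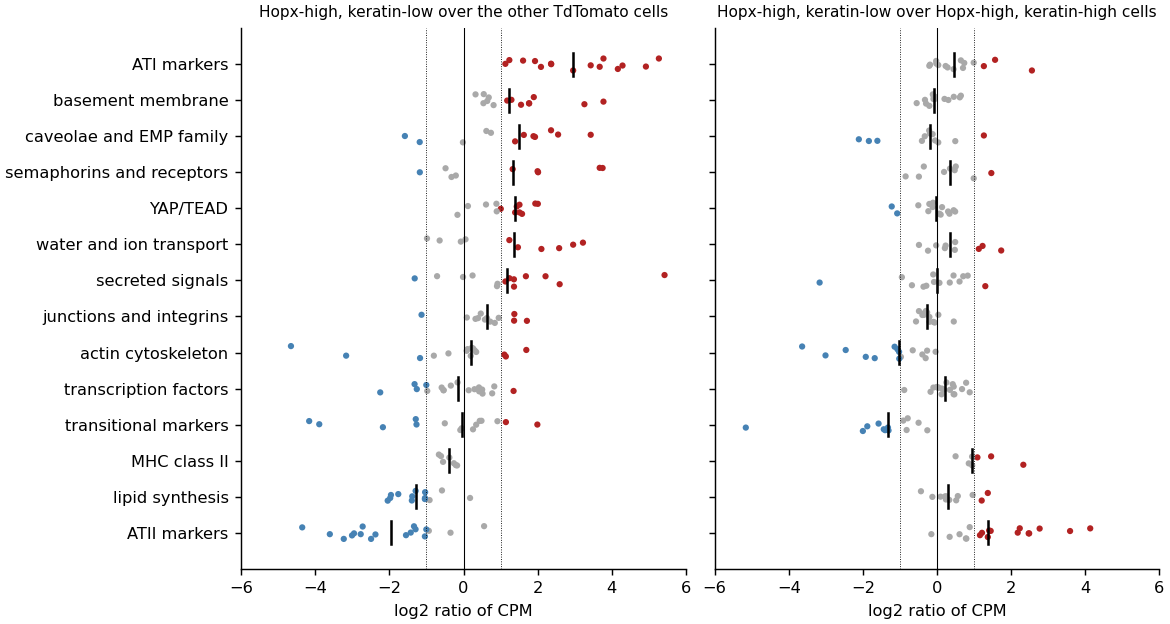
Each point is a gene of a list with at least 10 CPM, plotted by its log2 ratio of CPM between the Hopx-high, keratin-low cells and the other TdTomato cells (left) or the Hopx-high, keratin-high cells (right); black bars are list medians, dotted lines mark 2-fold, and red and blue points lie beyond them. ATI markers have a median of 2.96 on the left and 0.44 on the right, and ATII markers -1.96 and 1.39; the actin median of 0.20 on the left lies under the all-gene median of 0.23.

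Over all 8370 genes, 517 were at least 2-fold higher and 473 lower in the selected cells. The split depended on the scale, with 361 higher and 591 lower relative to the median gene, and 379 and 640 when surfactant, Lyz2 and mitochondrial UMIs were left out of the totals. The 15 highest ratios among genes with at least 20 CPM in either class were those of Rtkn2, Spock2, Tmem108, Pdpn, Akap5, Ifit3, Col4a3, Sema3e, Sema3a, Bdnf, Ifit2, Cavin2, Cyp4b1, Col4a4 and Fbln5. Tmem108, a membrane protein, stood at 20.1 against 0.735 CPM (27.3-fold). Fbln5, a protein of elastic fibres, stood at 206 against 21.9 CPM (9.38-fold). Bdnf, a neurotrophin, stood at 58.8 against 4.61 CPM, and at 59.4 against 2.30 CPM without cells that held 3 or more endothelial, fibroblast or immune UMIs. It was also detected in 40.2% of thinned fibroblast-rich cells, against 20.9% of the selected and 1.65% of the other TdTomato cells (unthinned 54.6%, 30.7% and 3.44%).

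The 15 lowest ratios were mostly genes of other cell types. They were Gzme, Ccl6, Chil3, Dcn, Lyz1, Tyrobp, Col1a2, Ctss, Acta2, Mgp, Col3a1, Eln, Ibsp, Mfap5 and Gpx3, among them the fibroblast genes Dcn and Col1a2 and the myeloid genes Tyrobp and Ctss. Lyz1 is a near copy of Lyz2 and reads may be split between them. The other TdTomato cells included stromal and immune cells that carried TdTomato UMIs, since 201 of 249 fibroblast-rich, 117 of 126 endothelial-rich (at least 10 UMIs of those markers) and 73 of 74 immune-rich cells passed the limit of 1 UMI. TdTomato stood at 8005 CPM in the selected cells, 7031 CPM in the others and 738 CPM in the fibroblast-rich cells. Only 1 selected cell was itself rich in any of these lists.

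With cells of 3 or more endothelial, fibroblast or immune UMIs removed from both sides, no marker of these 3 lists reached 10 CPM in either class, which the removal itself brings about. Among the lowest ratios that were left, Gzme, a granzyme gene, had 1 UMI in the selected cells, or 0.0768 against 50.5 CPM, a ratio of 0.00152 (3.85e-05 to 0.00848). Pthlh, the parathyroid hormone-like hormone, stood at 0.691 against 40.6 CPM and Gkn2, a gastric mucosa gene, at 2.61 against 90.5 CPM. Dlk1, an imprinted Notch-related gene, stood at 21.7 against 393 CPM, Lcn2 at 108 against 1538 CPM, C3 at 3.84 against 54.4 CPM and the club cell gene Scgb1a1 at 30.7 against 409 CPM. In that comparison 15 genes of the ATI list were higher and 15 of the ATII list lower (6.36% and 4.97% of all genes). Cav1, Pdpn, Rtkn2 and Spock2 reached 10 CPM in the selected cells only there, and the other 11 measured ATI markers were all higher.

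The summed markers of most other cell types were lower in the selected than in the Hopx-low cells, and the mesothelial sum was higher. Endothelial markers summed to 10.1 CPM (0 of 8 without UMIs) against 73.5 in the Hopx-low cells, fibroblast markers to 10.1 (1 of 7 at 0) against 977, and immune markers to 2.85 (2 of 7 at 0) against 82.0. Airway markers summed to 47.2 against 918 CPM. The keratin-high cells under the Hopx limit had lower endothelial and airway sums than the selected cells, at 8.24 and 14.97 CPM. The mesothelial list was carried by Msln, at 39.0 CPM, with the other 3 genes at 0. Msln stood at 7.99 CPM in the Hopx-low cells, under the minimum of 10, and at 132 CPM in the keratin-high cells under the Hopx limit. In the Hopx-high, keratin-high and the Hopx-mid cells it was close to the selected cells, at 37.5 and 39.5 CPM. Cell cycle genes summed to 16.5 CPM, with Pcna the highest at 10.3, against 118 in the Hopx-low cells and 120 in the keratin-high cells under the Hopx limit. Their sum was also low in the Hopx-high, keratin-high cells, at 20.1 CPM, and stood at 61.2 CPM in the Hopx-mid cells. Mki67 was 13.8-fold lower (8.19 to 25.2) than in the other TdTomato cells, and 7 of the 950 cells held 3 or more UMIs of the cell cycle list. Birc5, Cdk1, Cenpf, Mki67, Top2a and Ube2c reached 10 CPM in the other TdTomato cells only, so that they had to differ. The 1 measured gene that reached it on both sides was not called. Of 14 measured glycolysis genes 0 were higher and 2, Slc2a1 and Hk2, lower (6.18% and 5.65% of all genes).

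A pair of interferon-induced genes stood among the 15 highest ratios, Ifit3 at 48.7 against 3.13 CPM (15.6-fold, 14.0 to 17.3) and Ifit2 at 27.6 against 2.20 CPM (12.6-fold, 10.97 to 14.4). Other genes of the interferon response, chosen after these values were seen, were much closer between the classes. Isg15 stood at 10.7 against 8.30 CPM (1.29-fold), Irf7 at 6.38 against 4.21 CPM (1.51-fold), Bst2 at 36.7 against 35.3 CPM (1.04-fold) and Ifit1 at 3.75 against 1.47 CPM (2.56-fold). Ifit3b, a near copy of Ifit3 whose reads may be split with it, stood at 15.5 against 1.05 CPM. Ifit3 was spread over many cells, in 148 of 841 thinned cells (17.6% against 1.08% of the other TdTomato cells and 7.73% of fibroblast-rich cells; unthinned 30.2%, 2.99% and 14.1%), and the 10 cells with the most held 21.0% of its 649 UMIs. Ifit2 was seen in 130 of these cells, both genes in 33, and Isg15 in 33. The Hopx-high, keratin-high cells had Ifit3 in a similar share, 16.5% (10.3 to 24.6), and the Hopx-mid cells in 2.74%.

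Ifit2, Ifit3, Ifit3b and Ifit1 lie in a row on the plus strand of chromosome 19. The letters GAAA, any 2 bases and GAAA (on the other strand TTTC, any 2 bases and TTTC), which make up the core of the interferon-stimulated response element, were present in 2.98% of all promoter windows. Of the 13 of the 15 highest genes with a window, Bdnf and Ifit3 held them. The Ifit3 window is shown because of its ratio, with the matches in capitals at 156 and 122 bases before the start (chr19:34583279-34583528, plus strand, GRCm38.p6, 5′ to 3′).
Ifit3: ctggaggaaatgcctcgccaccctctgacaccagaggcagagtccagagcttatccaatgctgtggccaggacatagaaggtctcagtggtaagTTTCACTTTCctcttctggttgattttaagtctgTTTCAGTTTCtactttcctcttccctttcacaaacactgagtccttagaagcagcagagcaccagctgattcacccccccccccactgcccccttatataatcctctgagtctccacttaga

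The selected cells varied widely in surfactant. Sftpc ran from 1.23 to 3256 UMIs per 10000, with a median of 92.9 and quartiles of 22.3 and 573. It was under 25 in 264 cells (27.8%, 24.96 to 30.8) and at least 500 in 259 cells (27.3%, 24.5 to 30.2). Of fibroblast-rich cells, in which Sftpc had a median of 9.78 and which gauge free RNA, 81.1% were under 25 and 2.81% at 500 or more. The Hopx-high, keratin-low cells thus spanned the range between that background and the Hopx-low cells, of which 83.9% had 500 or more. Because nearly every cell of any kind had a Sftpc UMI (99.3% of thinned selected and 95.4% of fibroblast-rich cells), a share of cells with a UMI carries no information for this gene.

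**Figure D4:**
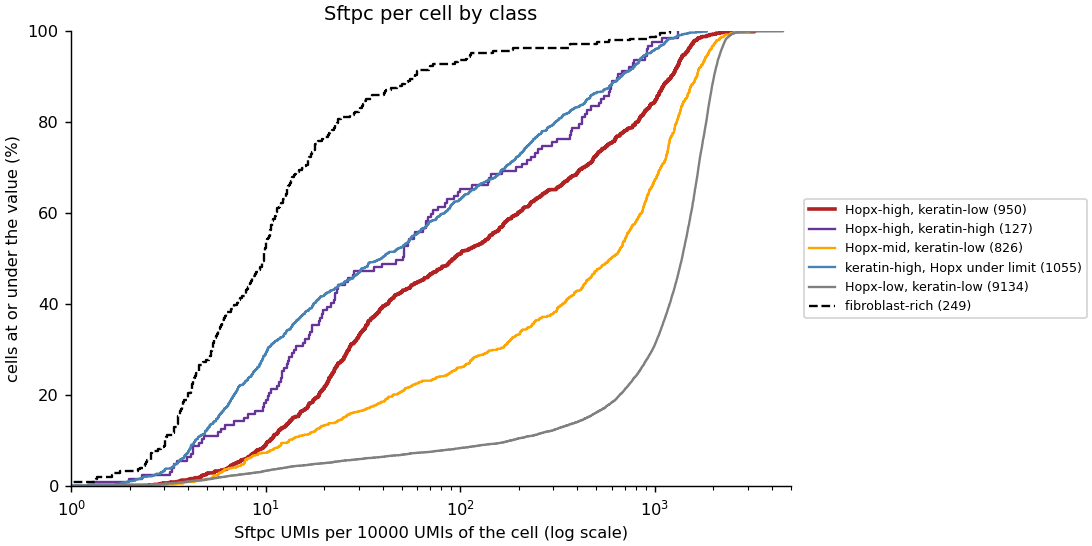
Cumulative share of cells (y axis, percent) at or under a given number of Sftpc UMIs per 10000 of the cell (x axis, log scale) for 5 classes of TdTomato cells and for the fibroblast-rich cells (dashed). The Hopx-high, keratin-low curve (red) crosses 50% at 92.9, between the Hopx-high, keratin-high cells (51.0) and the Hopx-mid cells (594), and far under the Hopx-low cells (1379).

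Several ATI genes were lower, but still present, where Sftpc was high, and others hardly differed. From the lowest of 4 Sftpc ranges (under 25, 25 to 100, 100 to 500, and 500 or more) to the highest, Ager stood at 7326, 7402, 5542 and 4473 CPM. Emp2 stood at 2493, 2333, 1809 and 1314 CPM in the same order, and Akap5 at 1056, 1149, 732 and 576 CPM. Rtkn2 had the widest range of these 4 genes, at 316, 345, 83.6 and 66.4 CPM. These 4 markers were thus higher in the 2 lower ranges than in the 2 higher ones, and in the top range Ager still exceeded the 1144 CPM of the other TdTomato cells. Aqp5, at 2595 CPM in the lowest and 2307 in the highest range, and Pdpn, at 63.0 and 47.4 CPM, differed little. Cdkn1a went the way of Ager, at 1143, 1023, 682 and 556 CPM, and so did Krt7, at 1366, 1224, 1053 and 721 CPM.

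ATII genes were concentrated in the cells with the most Sftpc. Lyz2 stood at 84.2, 153, 296 and 1926 CPM over the 4 ranges, Cxcl15 at 82.7, 147, 246 and 1583 CPM, Slc34a2 at 37.2, 73.7, 206 and 843 CPM and Lamp3 at 9.59, 14.1, 56.0 and 199 CPM. Cebpa (75.5, 73.7, 129 and 200 CPM) and the MHC class II chaperone Cd74 (2909, 3299, 4449 and 5696 CPM) were also highest there. Nkx2-1 differed less, at 654, 654, 655 and 515 CPM. Between the 259 cells with at least 500 and the 264 with under 25, 16 of 17 measured ATII markers other than Sftpc were at least 2-fold higher, as were 5 of 7 MHC class II and 6 of 12 lipid synthesis genes. Of 15 ATI markers 0 were higher and 3 lower, with a median log2 ratio of -0.87. Over all 8303 genes 181 were higher and 221 lower, with a median of -0.27. Sftpc set these ranges, so the values are a description. Median depth also differed, at 10547.5, 7936, 12764 and 16416 UMIs per cell, and the part of doublets in the last range was not tested.

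Lyz2 was near 0 in most of the selected cells and high in a few. Its median was 0.718 UMIs per 10000 and its upper quartile 1.90, yet single cells reached 270. It was detected in 38.9% (35.6 to 42.3) of thinned cells, against 27.8% (21.7 to 34.7) of fibroblast-rich and 76.1% of the other TdTomato cells (unthinned 63.1%, 61.0% and 86.4%). Most of the selected cells were thus close to the background level of Lyz2.

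The variance of each gene over the 841 thinned cells was divided by its mean, which gives 1 for counting noise alone. Among 727 genes with a mean of at least 1 UMI the median was 1.36, and the 10 highest were Sftpc (329), Malat1 (80.0), Sftpa1 (50.5), Gm42418 (44.1), Lyz2 (43.0), Clu (31.8), Sftpb (25.6), Cxcl15 (18.2), Fos (16.6) and mt-Co3 (16.5). Of these, 5 were ATII genes. Malat1 is a nuclear RNA, Gm42418 overlaps a ribosomal RNA gene and mt-Co3 is mitochondrial. Fos, an immediate early gene, varied together with Jun (Pearson r 0.73).

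Within the same cells, some surfactant genes and some ATI genes went in opposite directions. Sftpc went with Sftpb (r 0.65) and Sftpa1 (0.56), and Ager went with Clic5 (0.40), Emp2 (0.40), Cldn18 (0.39) and Akap5 (0.36). Across these genes the values were negative, with r of -0.49 for Ager and Sftpb, -0.33 for Ager and Sftpc and -0.49 for Emp2 and Sftpc. Lyz2 went with Cxcl15 (0.53) more than with Sftpc (0.20) and hardly varied with Ager (-0.09). Cd74 went with Sftpc (0.45) and against Cdkn1a (-0.43). Fos and Jun, which also went with Cyr61 (0.43 and 0.40), had values near 0 with both Ager and Sftpc. These correlations are over 841 cells of 1 pooled sample thinned to the same depth, in which an abundant gene such as Sftpc takes UMIs from all others, and they are given as a description.

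ATI levels were graded along Hopx itself. From the cells just outside the limit (10 to 15) over 15 to 20, 20 to 30 and 30 to 50 to those at 50 and over, Ager stood at 3503, 4465, 5331, 6456 and 8166 CPM. Rtkn2 stood at 35.2, 54.1, 132, 212 and 384 CPM, Akap5 at 353, 502, 684, 913 and 1403 CPM, and Col4a3 at 165, 227, 337, 444 and 720 CPM. Ifit3 followed the same order, at 11.7, 20.2, 29.9, 46.5 and 125 CPM. The intervals of neighbouring ranges did not overlap for these 5 genes, except for Ifit3 between 15 to 20 and 20 to 30. Sftpc stood at 70189, 70630, 47559, 41456 and 22334 CPM, and Cebpa at 191, 199, 136, 106 and 64.5 CPM. Lyz2 followed no single order, at 1314, 968, 756, 1141 and 167 CPM. Nkx2-1 stayed between 544 and 656 CPM. Median depth fell from 16569 to 9285 UMIs over these ranges, and its part was not tested.

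**Figure D5:**
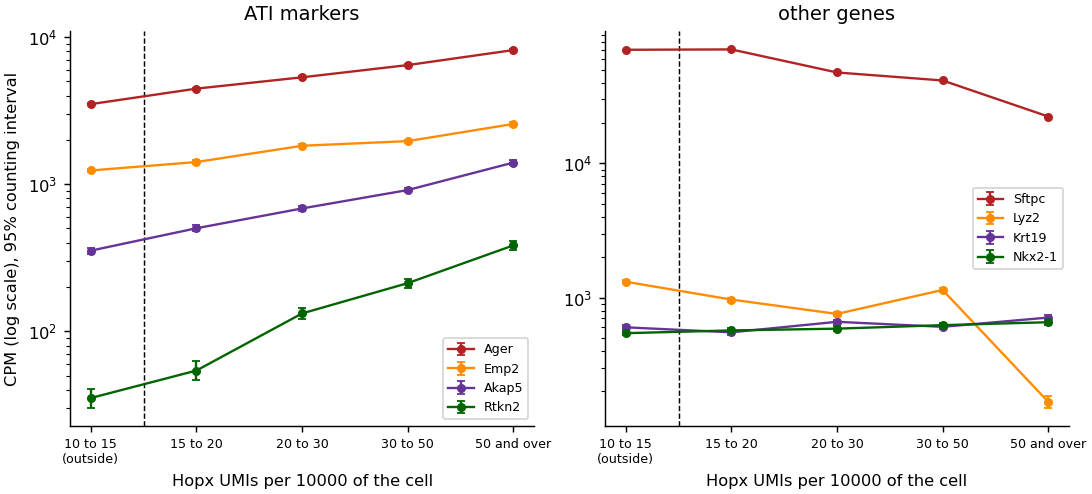
Summed level (CPM, log axis) of 4 ATI markers (left) and of Sftpc, Lyz2, Krt19 and Nkx2-1 (right) over ranges of Hopx UMIs per 10000 in keratin-low cells; bars are 95% counting intervals and the dashed line marks the limit of 15. Ager stands at 3503 CPM just outside the limit and 8166 CPM at 50 and over, while Sftpc stands at 70189 and 22334 CPM.

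Along the keratins, which were limited to under 50 per 10000, Krt19, Krt7 and Areg were graded too, and Cdkn1a was not graded within the limit. From 0 to 10 over 10 to 20, 20 to 30 and 30 to 50 to 50 to 75 and 75 and over, the last 2 being outside the limit, Krt19 stood at 252, 497, 663, 960, 1354 and 2427 CPM, Krt7 at 680, 951, 1064, 1315, 1594 and 2236 CPM and Areg, an EGF receptor ligand, at 552, 770, 1370, 1966, 2614 and 3731 CPM. Lyz2 went the other way, at 2617, 932, 406, 159, 72.4 and 55.5 CPM. Cdkn1a stayed between 764 and 852 CPM within the limit. Ager, between 5522 and 6196 CPM within the limit, stood at 4916 and 4705 CPM outside it.

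The 127 Hopx-high, keratin-high cells share the Hopx limit with the selected cells. Of 15 measured ATI markers 3 were at least 2-fold higher in the selected cells (1.66% of all 8289 genes were), Pdpn at 52.4 against 8.90 CPM (5.90-fold), Rtkn2 at 177 against 59.9 CPM (2.96-fold) and Cavin2 at 236 against 98.3 CPM. Pdpn reached 10 CPM in the selected cells only. Ager, at 5901 against 4848 CPM, and Aqp5, at 2484 against 2526 CPM, were not called. Of 14 measured basement membrane genes 0 were called in either direction. Among genes at 10 CPM in both classes, 1 of 12 caveola and EMP genes was higher and 3 were lower. Of semaphorin and receptor genes 1 of 9 was higher, of transport genes 2 of 9 and of secreted signals 0 of 11, with 0 lower. Of all such genes 0.773% were higher and 1.21% lower.

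ATII markers were higher in the selected cells than in this class, in 12 of 18, against 1.66% of all genes. Hc and Fabp5 reached 10 CPM in the selected cells only, and of the other 16 markers 10 were higher, against 0.773% of the 7630 genes at that level in both classes. Hc, complement C5, stood at 49.3 against 2.81 CPM (17.5-fold, 8.02 to 48.0, from 6 UMIs in the smaller class), Lyz2 at 806 against 67.0 CPM and Cxcl15 at 670 against 98.3 CPM. Other genes among the 8 highest were Lcn2 (8.21-fold), Retnla (7.63-fold, with 28.5% of its UMIs in 1 selected cell), Lrg1, Cox6a2 and Trf. In MHC class II, 3 of 7 genes were higher, H2-Aa (525 against 191 CPM), H2-Ab1 (378 against 178 CPM) and the class II transactivator Ciita (14.1 against 2.81 CPM, at the minimum in the selected cells only). Both classes held Sftpc over a wide range, with per-cell medians of 92.9 and 51.0 per 10000.

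Transitional and actin genes were lower in the selected cells than in this class, in 8 of 13 and 9 of 15 measured members, against 1.95% of all genes. Among members at 10 CPM in both classes these counts were 7 of 12 and 6 of 12, against 1.21% of such genes. The rule split these classes by Krt8 plus Krt18, and Krt19 went with Krt8 among the selected cells (r 0.41). The transitional count is therefore a description. Krt19 stood at 627 against 1699 CPM, Cldn4 at 49.7 against 199 CPM, Areg at 1199 against 2973 CPM and Anxa1 at 521 against 1306 CPM. Of the actin list, Tpm2 stood at 44.5 against 246 CPM and Myl9 at 1.05 against 13.1 CPM. The 8 lowest ratios were those of Gsta1, Gm3776, Sprr1a, Ly6g6c, Uchl1, Trim47, Slc16a3 and Edn1. For most of these genes a single cell held much of the UMIs of the Hopx-high, keratin-high class. All 119 UMIs of Gsta1, a glutathione transferase, and all 53 of Gm3776, which lies beside it on chromosome 9 and may share its reads, came from 1 of the 127 cells. Of Edn1, the vasoconstrictor endothelin, at 6.45 against 58.1 CPM, 1 cell held 59.7% of the UMIs, and of Sprr1a 152 of 304. Trim47 was spread more evenly, over 28 cells with 8.77% in the highest.

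The 826 Hopx-mid cells were set apart by fewer high genes. Against them 70 of 8308 genes (0.843%) were higher in the selected cells and 192 (2.31%) lower. The higher genes took in 9 of 15 ATI markers, with Rtkn2 at 177 against 22.8 CPM (7.79-fold), Spock2 5.31-fold, Pdpn 4.08-fold and Akap5 3.19-fold. Ctgf (149 against 36.6 CPM), Bdnf (5.67-fold), Tmem108 (4.53-fold), Ifit3 (6.28-fold) and Ifit2 (4.23-fold) completed the 8 highest. Ager, at 5901 against 2978 CPM, was just under 2-fold. The ATII list was lower in 8 of 18 members, Sftpa1 (2901 against 6488 CPM) among them. Among genes at 10 CPM in both classes, 3 of 12 caveola and EMP and 2 of 9 semaphorin and receptor genes were higher. Of transport genes 3 of 9 were higher and of secreted signals 0 of 10. In these 4 lists 0 were lower. Of all such genes 0.618% were higher and 0.979% lower.

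The 8 lowest ratios against the Hopx-mid cells were AU040972, Calml4, Ifitm1, Fam183b, Ccdc153, Sprr1a, 1110017D15Rik and Foxj1. Foxj1, the master regulator of motile cilia, stood at 1.20 against 20.5 CPM, with UMIs in 31 of the 826 cells, and 5 measured airway markers were lower (2.31% of all genes were), of which Foxj1, Tmem212 and Ccdc153 reached 10 CPM in the Hopx-mid cells only. The Hopx-mid class thus held RNA of ciliated cells (Tmem212 17.4 CPM and Ccdc153 33.8 CPM), which was near absent from the selected cells (0.375 and 1.80 CPM). Against the 1055 keratin-high cells under the Hopx limit, 4.62% of 8459 genes were higher and 6.61% lower. There 11 of 15 ATI markers and 6 of 7 MHC class II genes were higher, and 14 of 16 transitional, 11 of 15 actin and 10 of 15 glycolysis genes were lower. Among members at 10 CPM in both classes these counts were 8 of 12 and 5 of 6 higher, and 10 of 12, 8 of 12 and 9 of 14 lower, where 3.27% and 3.99% of such genes were. The Hopx and keratin limits of the rule separate these cells from the selected ones, so the ATI and transitional counts are a description.

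The Lkb1 allele was read from 2 features, the Stk11 transcript and the GFP of the gene trap. Among the thinned cells, 130 (15.5%) had a Stk11 UMI and 133 (15.8%) a GFP UMI, and 0 of 841 had both, which allows up to 0.357%. The shares were 9.96% and 11.1% in the other TdTomato cells, of which 4 had both. Unthinned, Stk11 was seen in 28.1% of the selected and 28.0% of the other TdTomato cells, and GFP in 25.7% and 28.2%. Thinned shares of Stk11 and GFP were 9.57% and 21.7% in the Hopx-high, keratin-high cells and 8.77% and 17.7% in the Hopx-mid cells. Stk11 was seen in 4.12% of thinned fibroblast-rich cells. Neither feature was called against the other TdTomato cells. Over the Hopx ranges from 15 to 20 to 50 and over, Stk11 stood at 23.3, 27.6, 35.2 and 46.5 CPM and GFP at 42.4, 34.6, 32.5 and 28.1 CPM. Over the keratin ranges within the limit, Stk11 stood at 46.0, 38.6, 27.1 and 19.8 CPM and GFP at 19.3, 29.9, 37.8 and 47.1 CPM.

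Sex-linked transcripts differed between the classes as well. A Y-linked UMI was present in 39.0% of the thinned selected cells and 29.6% of the other TdTomato cells, and Xist in 25.8% and 38.5%. A difference in the mix of mice, which include 4 males and 2 females, and a difference in cell state cannot be told apart in the pooled values for any of the comparisons above.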

How the data were processed

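Per the labels and the study's methods, 10x Chromium 3' v3 libraries of 6 mice were processed by the authors with Cell Ranger 3.0.2 on mm10, to which GFP and TdTomato sequences were added; the annotation release is not given in the sources used here. The deposited values were whole UMI counts per gene and cell in 1 pooled matrix of 16017 cells and 31055 features, which the authors had not normalized. Cell Ranger's cell calling sets which low-depth cells are present, and per-cell totals include free RNA.

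UMIs were summed over the cells of a class and given as CPM, so deep cells weigh more. Poisson intervals for levels, conditional binomial intervals for ratios and Clopper-Pearson intervals for shares were exact, at 95%. With 1 sample and no map from cells to mice, no test was run. A gene was called at a ratio of at least 2, or its inverse, with an interval excluding 1 and at least 10 CPM in either class; Hopx, Krt8, Krt18 and TdTomato were left out. A count of 0 was read with an upper limit of 3 counts. For shares, variances and correlations each cell was thinned to 5000 UMIs (109 selected cells were shallower). No doublet caller was run; leaving out the 6% of cells with the most UMIs, and selected cells with at least 100 Sftpc UMIs per 10000, stood in as alternatives. Named genes were those of the lists, the 15 largest ratios each way against the other TdTomato cells, the 8 each way against the Hopx-high, keratin-high and the Hopx-mid cells (at least 20 CPM, without mitochondrial and sex-linked genes) and the 10 highest variance ratios. The members and lists were chosen with earlier results of these data known. GENCODE M21 on GRCm38 matched 31011 of 31055 features by gene ID. Ratios were tested on simulated counts first. The computations used Python 3.11.15 with scipy 1.17.1, numpy 2.4.6 and pandas 2.3.3, and figures were drawn in matplotlib 3.10.9. Some genes and alleles are not reported here.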

Additional observations from a re-analysis of the deposited data

How the results depend on the processing

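The share of selected cells moved with the limits that define it. It was 8.76% at no more than 10% mitochondrial UMIs, 10.1% and 5.02% with the Hopx limit at 10 and 25, 5.17% and 8.77% with the keratin limit at 25 and 100, 4.01% without selected cells of at least 100 Sftpc UMIs per 10000, and 6.18% among cells with at least 10000 UMIs, an alternative chosen after seeing the data. The counts of genes at least 2-fold higher and lower moved from 517 and 473 to 811 and 1516 with a minimum of 1 CPM and to 291 and 184 with a minimum of 50 CPM, and 829 were higher without the selected cells of high Sftpc. Of the ATI list 14 or 15 genes were higher, and of the ATII list 13 to 17 lower, under every alternative run. Of the 284 genes of the lists and of the 15 largest ratios each way, 136 were called. None of these changed its sign under the alternatives run, except without cells of 3 or more endothelial, fibroblast or immune UMIs, where 11 did, all of them called lower before (Acta2, Col1a1, Col1a2, Col3a1, Ctss, Eln, Ibsp, Mfap5, Mgp, Ramp2 and Tyrobp), and some of these are the markers that this alternative removes. Calls were lost for at most 11 of the 136 genes under the others, apart from 47 with the minimum of 50 CPM and 23 without those cells. The log2 ratio over the other TdTomato cells ran from 2.13 to 2.68 for Ager, 4.97 to 6.16 for Rtkn2 and 3.71 to 4.77 for Ifit3, and from -1.71 to -1.03 for Sftpc, or to -5.47 where selected cells were left out by Sftpc itself. That of Lyz2 was -3.61, -3.02 with the keratin limit at 25, -4.28 as a mean over cells and -6.47 without the selected cells of high Sftpc. Depth limits the sparse genes, since Rtkn2 had a UMI in 48.2% of the cells before thinning. No paired analysis was possible because the values used carry no mouse of origin, and leaving out 1 mouse at a time was not run for the same reason.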
